A study of Mus musculus with 4 samples.

Results

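The genes that encode the subunits of the constitutive proteasome were examined in EGFP+ cells recovered from mouse bone marrow 24 h after a transplant. They were taken by symbol, as every row whose name begins with Psma, Psmb, Psmc, Psmd or Psme and a digit, without the immunoproteasome genes Psmb8, Psmb9 and Psmb10 and without pseudogene symbols. This gave 41 of 23284 genes, of which 40 reached 1 FPKM (fragments per length of transcript and per number of reads mapped) in at least 2 of the 4 libraries and were tested. The remaining gene was Psmb11. The rule also takes Psmc3ip, whose name resembles that of an ATPase gene but whose product is a homologous recombination factor and no proteasome subunit, so counts are given with and without it.

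The proteasome degrades proteins that carry ubiquitin chains. Its barrel-shaped core particle is built of outer alpha rings, encoded by Psma genes, and inner beta rings, encoded by Psmb genes, and the beta subunits encoded by Psmb5, Psmb6 and Psmb7 cut peptide bonds. A regulatory particle caps the core. Its Psmc subunits form an ATPase ring that unfolds substrates, and most of its Psmd subunits form a lid and scaffold that bind and strip ubiquitin chains. Psme genes encode alternative caps that open the core without ATP. Immune cells can replace the catalytic subunits with the interferon-induced Psmb8, Psmb9 and Psmb10, and hematopoietic stem cells are known for a low rate of protein synthesis and a dependence on protein quality control.

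Donor cells were lineage-negative, Sca1-positive, c-Kit-positive (LSK) marrow cells of CAG-EGFP mice, in which the ubiquitous CAG promoter drives EGFP, and 100000 of them were given to each wild-type recipient. Control recipients were untreated. The other recipients had been given 5-fluorouracil (5-FU), a pyrimidine analog that blocks thymidylate synthesis, intravenously at 200 mg/kg 2 days before the transplant. Marrow mononuclear cells of each recipient were then sorted a second time for EGFP. Each group has 2 libraries, called biological replicates in the labels, and no source used here gives the ages of the animals.

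The FPKM of a library summed to between 678222 and 762107, with 14062 to 14395 genes above 0. In genes with low values, 1 read was worth 1.307 times as much FPKM in control recipient 1 as in 5-FU recipient 2, 1.257 times in control recipient 2 and 1.07 times in 5-FU recipient 1, so an FPKM value rests on fewer reads in controls. The cells are labelled stem and progenitor cells, and all 10 markers of such cells, among them Kit and Cd34, were above 0 in every library, with a summed level of 708.4 and 587.1 FPKM in controls versus 564.0 and 794.3 after 5-FU; Ly6a, which encodes Sca1, rose, Ptprc fell and 8 did not pass. Markers of other cells were present too and were lower after 5-FU. The 16 macrophage markers summed to 22998 and 25288 FPKM in control recipients 1 and 2 against 17225 and 10863 in 5-FU recipients 1 and 2. All 16 had a negative change, 3 fell at an adjusted p under 0.05 in limma, and 12 were lower at an unadjusted p under 0.05. Of all tested genes 4.67% fell and 14.4% were lower at these thresholds. The sums were 12642 and 9826 against 3632 and 3451 for 10 neutrophil markers, of which 7 fell, 1626 and 2281 against 188.3 and 270.1 for 13 erythroid markers, of which 10 of 12 tested fell, and 443.9 and 437.6 against 236.0 and 177.5 for 10 B cell markers, of which 6 of 9 tested fell. Ermap and Igll1 were listed at 0 in both 5-FU libraries, Alas2 and Rhag in the first, Vpreb3 in the second, and Pax5 in all libraries but 5-FU recipient 1. The part of these cells in the proteasome values was not tested. In bulk RNA, fewer cells of a type and less RNA per cell cannot be told apart.

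Proteasome transcripts made up a larger share of all FPKM in cells from 5-FU-treated recipients. The 41 genes summed to 4181 and 4361 FPKM in control recipients 1 and 2 and to 6031 and 7459 in 5-FU recipients 1 and 2. As a share of all FPKM these sums were 0.614% and 0.643% in control and 0.889% and 0.979% in 5-FU libraries. The groups did not overlap in this share, which does not depend on how libraries were scaled against each other. The difference of the group means was 0.305 percentage points, against a spread between replicates of 0.0470 (pooled SD, n = 2 and 2). An exact permutation test of 2 against 2 libraries cannot give p below 0.333.

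Over the 40 tested genes the median log2 fold change was 0.65, beside −0.01 over all 11496 tested genes. Fold changes here are 5-FU minus control on log2(FPKM + 1). Of the 40, 38 were positive, where 49.2% of all tested genes were. Both 5-FU libraries lay above both control libraries for 34 of the 41 genes, a pattern that 31.4% of all tested genes showed, and below them for 2, Psma8 and Psmb11, a pattern that 30.7% showed. The remaining 5, Psmd4, Psmd9, Psmd10, Psmd13 and Psme4, overlapped. Single genes passed less often: 7 of 40 rose at an adjusted p under 0.05 in limma, where 8.23% of all tested genes did, and 1 fell, where 4.67% did. Without Psmc3ip, 6 of 39 rose and the median was 0.64. At an unadjusted p under 0.05, 27 of 40 were higher and 1 lower, beside 16.9% and 14.4% of all tested genes.

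A fit without 1 library has 1 left in that group, so its spread comes from the pair of the other group alone (1 residual degree of freedom). Its counts therefore depend on which pair supplies the spread as well as on the values. The count of genes that rose differed between these fits. It was 1, Psmc3ip, without control recipient 1 and likewise without control recipient 2, where 0.765% and 0.8% of all tested genes were higher. It was 31 without 5-FU recipient 1, where 18.5% of all tested genes were higher, and 14 without 5-FU recipient 2, where 9.08% were. Across the 14 alternative settings Psmb5 stayed past the threshold in 11, Psmd14 in 10, Psmc4 in 9 and Psma1, Psmb6 and Psmd12 in 6 each. The median moved less than the count. It was 0.59 and 0.70 without control recipients 1 and 2, and 0.77 and 0.50 without 5-FU recipients 1 and 2.

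**Figure D1:**
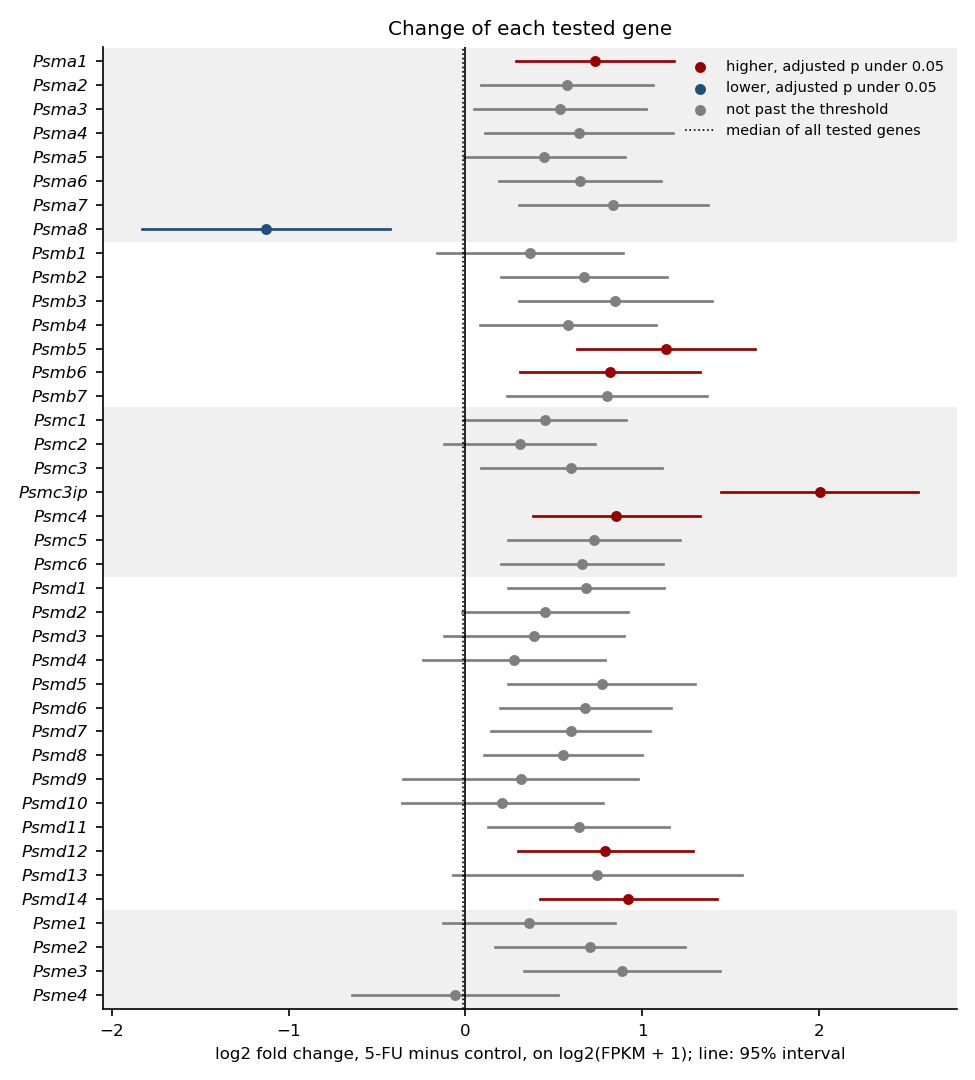
log2 fold change (x axis, 5-FU minus control on log2(FPKM + 1)) of each of the 40 tested genes (y axis, shaded by prefix), with its 95% interval from limma. Of the 40 points 38 lie right of 0, and the 2 to the left are Psma8 and Psme4.

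**Figure D2:**
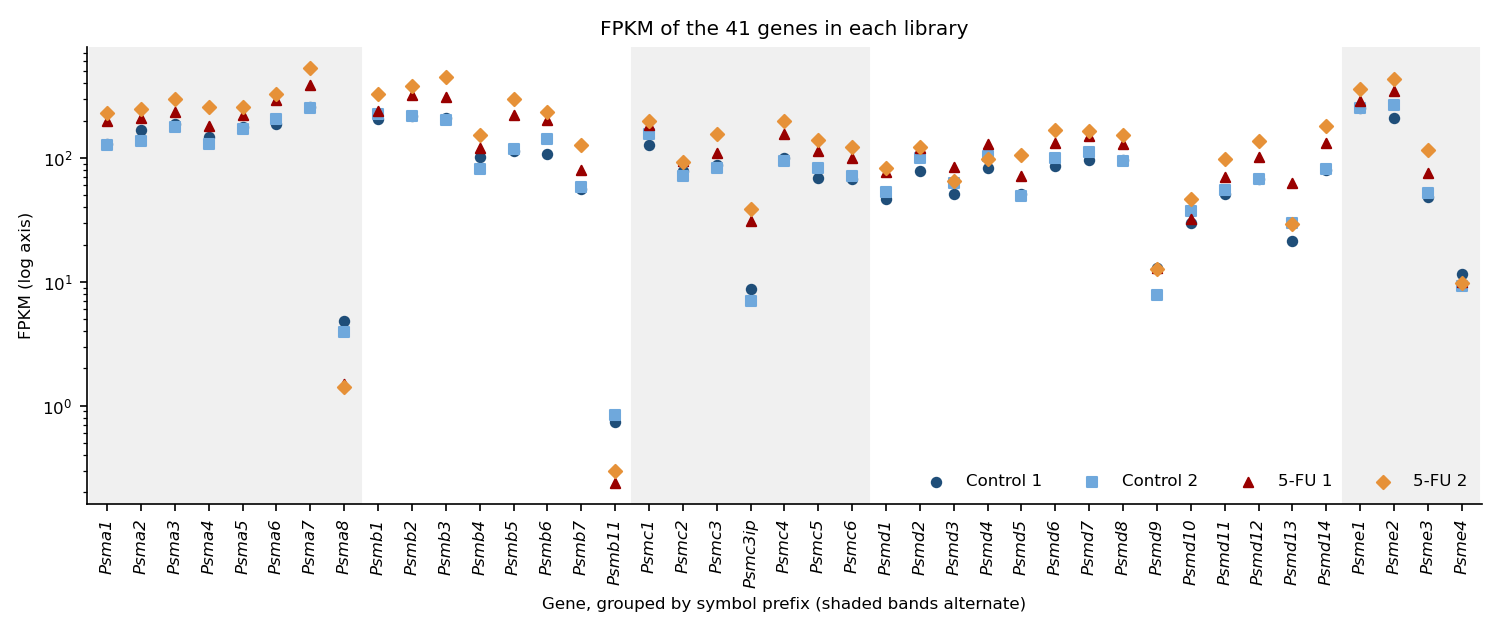
FPKM on a log axis (y) of each of the 41 genes (x, shaded by prefix) in the 4 libraries, 1 point per library. Both 5-FU points lie above both control points for 34 genes, and Psma8 and Psmb11, the lowest of all, have both 5-FU points below.

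Of the 7 alpha ring genes 1 rose and 6 did not pass. Psma1 to Psma7 had log2 fold changes of 0.45 to 0.84 with a median of 0.64, and all 7 had both 5-FU libraries above both control libraries. Their subunits form the gate through which substrates enter the core. Their levels ran from 127.0 to 255.9 FPKM in controls and from 181.4 to 533.5 after 5-FU, and all 7 were higher in 5-FU recipient 2 than in 5-FU recipient 1. Psma1, on chromosome 7 at 114264550 to 114276116 (mm10, coordinates of RefSeq's GRCm38.p6), had 129.9 and 127.0 FPKM in controls versus 197.7 and 231.7 after 5-FU. It was the 1 alpha ring gene that rose, by 0.73 (SE 0.19, limma adjusted p = 0.047). Psma7, the most abundant of the 41 genes in 3 of the 4 libraries, had 255.9 and 252.7 FPKM in controls versus 388.9 and 533.5 after 5-FU. Its change of 0.84 (SE 0.23) was larger than that of Psma1, and its 5-FU libraries were further apart, so that it did not pass (adjusted p = 0.052). The interval of the fold change lay above 0 for Psma2, Psma3, Psma4 and Psma6 too, at changes of 0.57, 0.54, 0.64 and 0.65, though none of the 4 passed after adjustment (adjusted p = 0.11, 0.13, 0.10 and 0.066). Psma6 had 188.9 and 207.3 FPKM in controls versus 295.1 and 327.9 after 5-FU, and its values within each group were close. Psma5 had the smallest change, 0.45, with a 95% interval of −0.01 to 0.90.

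Psma8, the testis form of the alpha ring subunit that Psma7 encodes, went the other way. It had 4.82 and 3.96 FPKM in controls versus 1.51 and 1.41 after 5-FU, and it fell by 1.13 (SE 0.30, limma adjusted p = 0.049). The call held in 5 of the 13 alternative settings that tested the gene. Its change was −1.01 and −1.24 without control recipients 1 and 2, and −1.16 and −1.10 without 5-FU recipients 1 and 2. The groups did not overlap, though every value was far below those of Psma7. The ratio of Psma8 to Psma7 was 0.0188 and 0.0157 in controls versus 0.00388 and 0.00264 after 5-FU. Psmb11, the catalytic subunit of thymic epithelial cells, had 0.741 and 0.837 FPKM in controls versus 0.237 and 0.296 after 5-FU and was not tested. Such low values rest on few reads.

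All 7 tested beta ring genes had both 5-FU libraries above both control libraries, and the 2 that rose encode catalytic subunits. Psmb5 encodes the subunit with chymotrypsin-like activity, the main target of proteasome inhibitor drugs, and lies on chromosome 14 at 54614120 to 54617995. It had 114.5 and 118.7 FPKM in controls versus 220.5 and 300.8 after 5-FU and rose by 1.14 (SE 0.22, limma adjusted p = 0.020), the largest change among proteasome subunits. Psmb6, the caspase-like subunit on chromosome 11 at 70525324 to 70527858, had 106.7 and 142.0 FPKM in controls versus 201.5 and 235.8 after 5-FU and rose by 0.82 (SE 0.22, adjusted p = 0.049). Psmb7, the trypsin-like subunit, had 56.1 and 58.6 FPKM in controls versus 80.4 and 125.9 after 5-FU. Its change of 0.80 (SE 0.24) did not pass (adjusted p = 0.068), and exons of Nek6 on the opposite strand, which itself rose by 1.20 (adjusted p = 0.027), cover 405 of its exon bases. Psmb3, a structural beta subunit, had 210.3 and 202.4 FPKM in controls versus 310.4 and 447.1 after 5-FU, a change of 0.85 (SE 0.24, adjusted p = 0.054). The control values of Psmb2 were nearly equal, 218.4 and 218.9 FPKM, versus 320.1 and 379.8 after 5-FU, a change of 0.67 (SE 0.20, adjusted p = 0.066). Psmb4 was at 0.58 and Psmb1 at 0.36. Psmb1 had 205.5 and 227.5 FPKM in controls versus 237.1 and 327.5 after 5-FU, so its first 5-FU value was near the higher control. The median over the 7 tested Psmb genes was 0.80, and 2 of 7 rose.

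The promoters of the genes that rose were searched for the letters of motifs known from proteasome regulation. NRF1, encoded by Nfe2l1, binds antioxidant response elements with the core TGACNNNGC and raises proteasome gene transcription when proteasome activity is short. Among the 7 genes that rose, 3 held this core on either strand between 250 bases before and 50 after an annotated start in RefSeq's GRCm38.p6 table: Psmb5, Psmb6 and Psmd12. The bases before the start are shown to place the match, which is in capitals, all 5′ to 3′ on the gene's strand. In Psmb5 (chr14:54617996-54618245, minus strand) it spans positions −47 to −39, counted back from −1 at the base before the start. In Psmb6 (chr11:70525327-70525356, plus strand) it spans −9 to −1, and 30 bases are shown. The start used for this window lies downstream of the first base of the gene's RefSeq span (70525324), so these 30 bases lie within that span. In Psmd12 (chr11:107479278-107479527, plus strand) the match reads on the reverse strand and spans −247 to −239.
Psmb5: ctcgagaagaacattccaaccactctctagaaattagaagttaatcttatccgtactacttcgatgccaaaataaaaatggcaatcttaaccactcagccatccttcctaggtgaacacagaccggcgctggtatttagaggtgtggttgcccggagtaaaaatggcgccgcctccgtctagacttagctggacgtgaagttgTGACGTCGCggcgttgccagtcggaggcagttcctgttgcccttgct
Psmb6: acagaggcggactaaagagagTGACGGAGC
Psmd12: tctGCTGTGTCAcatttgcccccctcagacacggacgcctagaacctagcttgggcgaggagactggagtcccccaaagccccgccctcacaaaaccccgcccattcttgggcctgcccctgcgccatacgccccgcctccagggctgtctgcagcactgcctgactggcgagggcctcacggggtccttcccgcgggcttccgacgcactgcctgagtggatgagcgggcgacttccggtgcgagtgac

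The share of proteasome genes with this core was close to that of other genes. It occurred in 6 of the 34 genes with a window, 17.6%, beside 17.7% of the tested genes with a window and 14% of all genes with a window. The 3 of the 7 genes that rose are 42.9%, beside the same 17.7%, a difference in few genes that was not tested. The other 3 genes that hold it did not pass the test: Psmc6 had a change of 0.66, Psmd9 of 0.31 and Psme4 of −0.06. CCAAT, the box bound by NF-Y, occurred in 14 of 34 (41.2%, beside 43.3% of tested genes), and CACGTG, an E-box bound by MYC and USF proteins, in 3 of 34 (8.82%, beside 12.3%). Both strands were read, and CACGTG is its own reverse complement. A match is a string of letters and no evidence of binding in these cells.

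The ATPase genes Psmc1 to Psmc6 had changes of 0.31 to 0.86 with a median of 0.63, and both 5-FU libraries lay above both control libraries for all 6. Psmc4, on chromosome 7 at 28041702 to 28050092, had 99.0 and 93.9 FPKM in controls versus 155.0 and 198.1 after 5-FU, and it was the 1 ATPase gene that rose, by 0.86 (SE 0.20, limma adjusted p = 0.036). Across the 6 genes levels ran from 67.7 to 154.6 FPKM in controls and from 91.9 to 198.2 after 5-FU. Psmc5 and Psmc6 were at 0.73 and 0.66 and missed the threshold (adjusted p = 0.059 and 0.064). Psmc2, at 78.9 and 71.5 FPKM in controls versus 94.5 and 91.9 after 5-FU, had the smallest change, 0.31, with a 95% interval of −0.12 to 0.73.

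Psmc3ip, which the prefix places among the ATPases, had the largest change of the 41 genes. Its protein, HOP2, helps strand invasion in homologous recombination and was first known from meiosis. It lies on chromosome 11 at 101092141 to 101095435 and had 8.69 and 7.05 FPKM in controls versus 30.8 and 38.5 after 5-FU, a rise of 2.01 (SE 0.24, limma adjusted p = 0.0085). The opposite-strand gene Mlx covers 385 of its exon bases. Mlx had 12.6 and 13.8 FPKM in controls versus 15.1 and 20.05 after 5-FU and did not pass (adjusted p = 0.33).

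The groups overlapped for 4 of the 14 Psmd genes and 1 of the 4 Psme genes. None of the alpha ring, beta ring and ATPase genes overlapped. Of all tested genes, 31.4% had both 5-FU libraries above both controls and 30.7% both below, and the rest overlapped. All 14 Psmd genes had positive changes, from 0.21 to 0.92 with a median of 0.62, but 2 rose, 12 did not pass and in 4 the groups overlapped. Both that rose belong to the lid, and 2 of the 4 that overlapped, Psmd9 and Psmd10, are assembly chaperones. Psmd14, the lid enzyme that removes ubiquitin chains from substrates as they enter, lies on chromosome 2 at 61711694 to 61800376. It had 80.1 and 81.1 FPKM in controls versus 130.9 and 180.2 after 5-FU and rose by 0.92 (SE 0.22, limma adjusted p = 0.034). Psmd12, a lid scaffold subunit, had 67.4 and 67.7 FPKM in controls versus 100.8 and 137.5 after 5-FU and rose by 0.79 (SE 0.21, adjusted p = 0.0498), just inside the threshold. Among the remaining lid genes, Psmd6 had 86.1 and 100.02 FPKM in controls versus 132.0 and 168.9 after 5-FU (change 0.68), and Psmd7 had 95.5 and 112.4 versus 150.7 and 163.9 (change 0.60). Psmd8 and Psmd11 were at 0.55 and 0.64, and all 4 lay between adjusted p = 0.069 and 0.095 in limma. Psmd1, a large scaffold subunit of the base, had 46.4 and 53.2 FPKM in controls versus 77.5 and 83.2 after 5-FU (change 0.68, adjusted p = 0.054), with the pair of values close in each group. The 8 lid genes had a median of 0.66, and the 3 non-ATPase genes of the base, Psmd1, Psmd2 and Psmd4, had 0.68, 0.45 and 0.27.

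The Psmd genes, the largest class with 14 genes, held 4 of the 5 genes whose groups overlapped. Psmd4, the ubiquitin receptor of the base, had 83.4 and 104.5 FPKM in controls versus 129.5 and 98.7 after 5-FU. The lid gene Psmd3 had 50.7 and 63.0 FPKM in controls versus 84.7 and 65.3 after 5-FU, so its groups did not overlap, but its second 5-FU value was near the higher control. Psmd13, also of the lid, had 62.3 FPKM in 5-FU recipient 1 and 29.6 in 5-FU recipient 2 against 21.2 and 29.9 in control. Its change of 0.75 therefore rests on 1 library. Relative to the mean of the controls Psmd13 stood at 1.27 in 5-FU recipient 1 and at 0.22 in 5-FU recipient 2. Exons of Sirt3 on the opposite strand cover 342 of its exon bases. Sirt3 itself changed by 0.04 (limma adjusted p = 0.93). The chaperones Psmd5, Psmd9 and Psmd10 assemble the base and leave the finished particle. Psmd5 had 51.3 and 49.4 FPKM in controls versus 71.9 and 104.7 after 5-FU, whereas Psmd9, at 7.88 to 12.9 FPKM, and Psmd10, at 29.7 to 46.4, overlapped between groups. Their changes were 0.77, 0.31 and 0.21, and none of the 3 passed.

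None of the activator genes passed in limma, and 2 of 4, Psme2 and Psme3, had an unadjusted p under 0.05. Psme1 and Psme2 encode the interferon-induced PA28 cap and Psme3 its nuclear relative. Psme3 had 47.9 and 52.2 FPKM in controls versus 75.7 and 115.1 after 5-FU, a change of 0.89 (SE 0.24) that missed the threshold narrowly (adjusted p = 0.0501) and passed in 7 of 14 alternative settings. Psme2 had 209.4 and 269.1 FPKM in controls versus 344.3 and 436.9 after 5-FU, a change of 0.71 (SE 0.23, adjusted p = 0.083). Psme1 had 250.3 and 252.1 FPKM in controls versus 288.5 and 361.4 after 5-FU, a change of 0.36 (SE 0.21, adjusted p = 0.28). Psme4 encodes PA200, a cap linked to histone degradation. It had 11.5 and 9.22 FPKM in controls versus 9.88 and 9.86 after 5-FU, and its change of −0.06 had a 95% interval of −0.64 to 0.53, which takes in the change of Psme1.

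The 2 cell recoveries from 5-FU-treated marrow differed from each other in the same direction for most of these genes. Values were higher in 5-FU recipient 2 than in 5-FU recipient 1 for 33 of the 40 genes, with a median log2 difference of 0.31, beside 51.9% and 0.03 over all tested genes. The control pair had a median difference of 0.01, with 23 of 40 higher in recipient 2. Relative to the mean of the controls, the median gene stood at 0.50 in 5-FU recipient 1 and at 0.77 in 5-FU recipient 2. By prefix these positions were 0.42 and 0.72 for Psma, 0.55 and 0.93 for Psmb, 0.51 and 0.84 for Psmc, 0.50 and 0.67 for Psmd and 0.37 and 0.70 for Psme. The FPKM of all genes summed to 762107 in 5-FU recipient 2 against 678270 in 5-FU recipient 1. As a share of these sums the 41 genes held 0.979% against 0.889%. The macrophage marker sum was lower in 5-FU recipient 2, at 10863 FPKM against 17225. The part of the library sum or of the macrophage markers in the gap between these libraries was not tested.

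**Figure D3:**
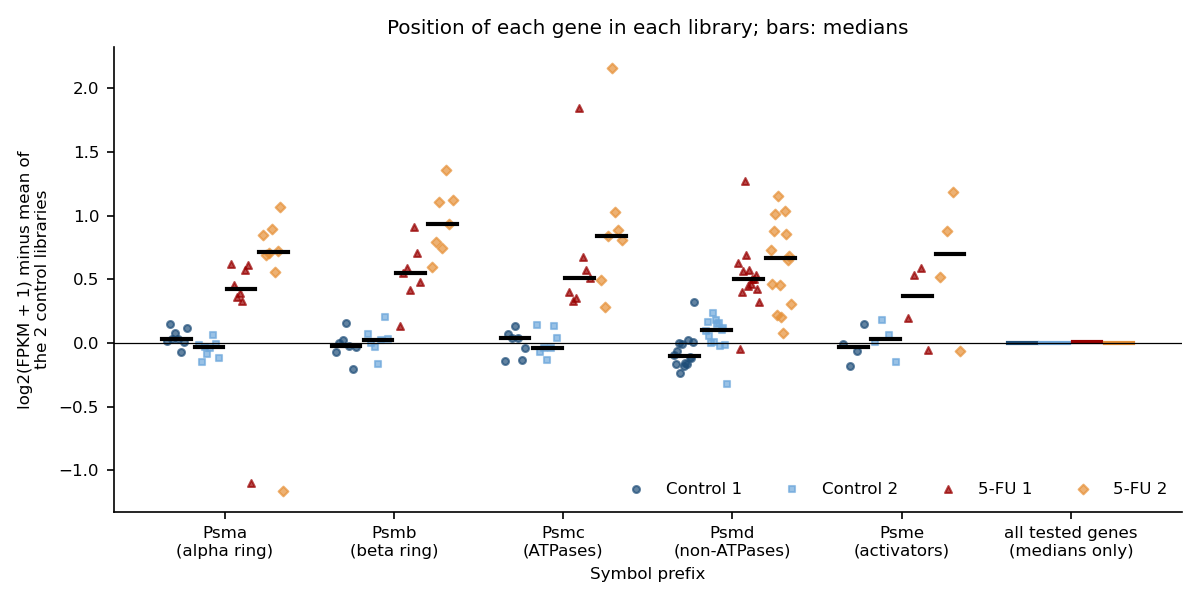
log2(FPKM + 1) of each tested gene minus its mean in the 2 control libraries (y), by prefix (x), 1 point per gene and library, with medians as bars; the last group gives the medians of all tested genes. The median is higher in 5-FU recipient 2 than in 5-FU recipient 1 for each prefix, and the medians of all tested genes lie near 0.

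The share of each gene class in the proteasome transcript pool was of like size in all libraries. Psma genes held 30.1% and 27.7% of the summed FPKM of the 41 genes in controls versus 28.6% and 28.9% after 5-FU. The share of Psmb genes was 24.2% and 24.1% in controls versus 24.7% and 26.4% after 5-FU, and that of Psmc genes was 12.9% and 12.96% against 13.1% and 12.7%. For Psmd genes it was 20.3% and 21.9% against 21.6% and 19.6%, and for Psme genes 12.4% and 13.4% against 11.9% and 12.4%. The groups overlapped for Psma, Psmd and, as summed here, Psmc. The Psmc sum takes in Psmc3ip, which is no proteasome subunit. That gene had 8.69 and 7.05 FPKM in controls versus 30.8 and 38.5 after 5-FU. Whether the groups overlap in the Psmc share without it is not given here. For Psmb both 5-FU libraries were above both controls, and for Psme both were below.

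The interferon-induced catalytic subunits had smaller changes than their constitutive counterparts. Psmb8, Psmb9 and Psmb10 had changes of 0.56, 0.37 and 0.28, and none passed (limma adjusted p = 0.10, 0.23 and 0.34). Psmb8 was the more abundant partner of Psmb5 in every library, at a ratio of 2.21 and 2.01 in controls versus 1.55 and 1.27 after 5-FU. The ratio of Psmb9 to Psmb6 was 0.938 and 0.628 in controls versus 0.557 and 0.569 after 5-FU, and that of Psmb10 to Psmb7 was 1.47 and 1.31 against 1.26 and 0.737. In each pair both 5-FU ratios lay below both control ratios, and each exact two-sided permutation test gave p = 0.333, the smallest value that 2 against 2 libraries allow.

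**Figure D4:**
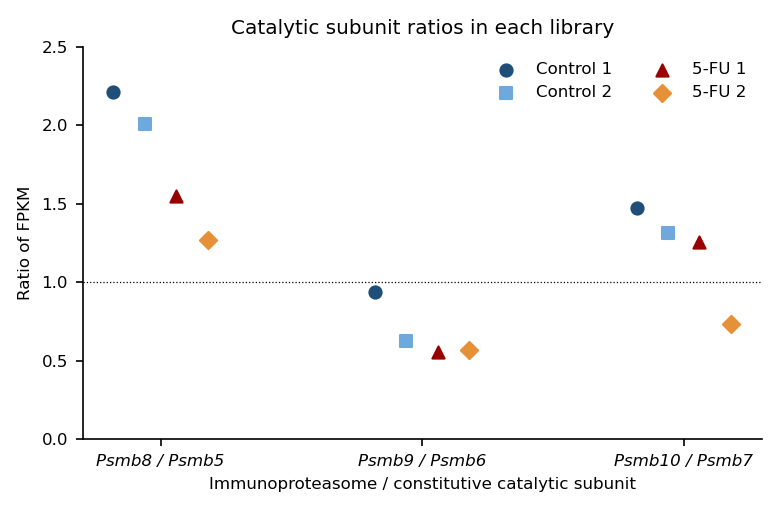
Ratio of the FPKM of each immunoproteasome gene to that of its constitutive counterpart (y, linear from 0; dotted line at 1), by pair (x), 1 point per library. In each pair both 5-FU points lie below both control points, by a narrow margin for Psmb9 over Psmb6.

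Among other genes of the pathway, those that rose serve assembly, ubiquitin removal and substrate delivery. The list held 44 symbols, of which 40 were in the files, and all 40 were tested. By limma 6 rose, none fell and 34 did not pass, where 8.23% of all tested genes rose and 4.67% fell. At an unadjusted p under 0.05, 9 were higher and 1 was lower, beside 16.9% and 14.4% of all tested genes. The median was 0.35, beside −0.01 over all tested genes. Without control recipient 1 or without control recipient 2, 0 of the 40 were higher (6 at an unadjusted p under 0.05 each time), and without 5-FU recipients 1 and 2, 13 and 8 were. The shares of all tested genes that were higher without each library are those given above for the subunit genes. No such share at an unadjusted p is given for these fits. Psmg1, Psmg2 and Psmg3 encode chaperones that assemble the alpha ring, and all 3 rose. Psmg1 had 25.6 and 25.9 FPKM in controls versus 53.9 and 89.9 after 5-FU and rose by 1.40 (SE 0.26, limma adjusted p = 0.020). Psmg2 had 42.2 and 41.2 FPKM against 81.9 and 88.5 and rose by 1.01 (SE 0.18, adjusted p = 0.018). Psmg3 had 33.6 and 28.98 FPKM against 63.0 and 88.3 and rose by 1.23 (SE 0.23, adjusted p = 0.019). Pomp, the chaperone of beta ring assembly, had 358.6 and 341.9 FPKM in controls versus 333.8 and 407.4 after 5-FU. Its groups overlapped, and its change of 0.07 had a 95% interval of −0.42 to 0.57. Psmg4, the partner of Psmg3, was at 0.35 and did not pass (adjusted p = 0.28).

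The deubiquitinase genes of the regulatory particle, other than Psmd14, were Uchl5 and Usp14. Uchl5 had 20.1 and 28.5 FPKM in controls versus 52.5 and 59.5 after 5-FU and rose by 1.19 (SE 0.23, limma adjusted p = 0.021). Usp14, which trims chains and can delay degradation, had 25.5 and 27.3 FPKM against 54.7 and 45.4 and rose by 0.89 (SE 0.20, adjusted p = 0.031). Rad23b, a shuttle that carries ubiquitinated proteins to the proteasome, had 5.71 and 7.33 FPKM against 18.5 and 14.3 and rose by 1.21 (SE 0.27, adjusted p = 0.029). The other 13 genes of proteasome-associated proteins did not pass, and the median over all 16 was 0.39.

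None of the 9 genes for transcriptional control passed in limma, and none had an unadjusted p under 0.05. Nfe2l1 had 19.4 and 23.7 FPKM in controls versus 25.5 and 16.5 after 5-FU, so its groups overlapped, with a change of −0.06 (95% interval −0.68 to 0.56). Nfe2l2, which encodes the related stress factor NRF2, had 59.2 and 72.1 FPKM in controls versus 52.2 and 46.9 after 5-FU, a change of −0.39 (95% interval −0.86 to 0.07). NRF1 activity is set largely by processing and turnover of the protein, which transcript levels do not show. Of the 6 ubiquitin and E1 genes none passed.

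**Figure D5:**
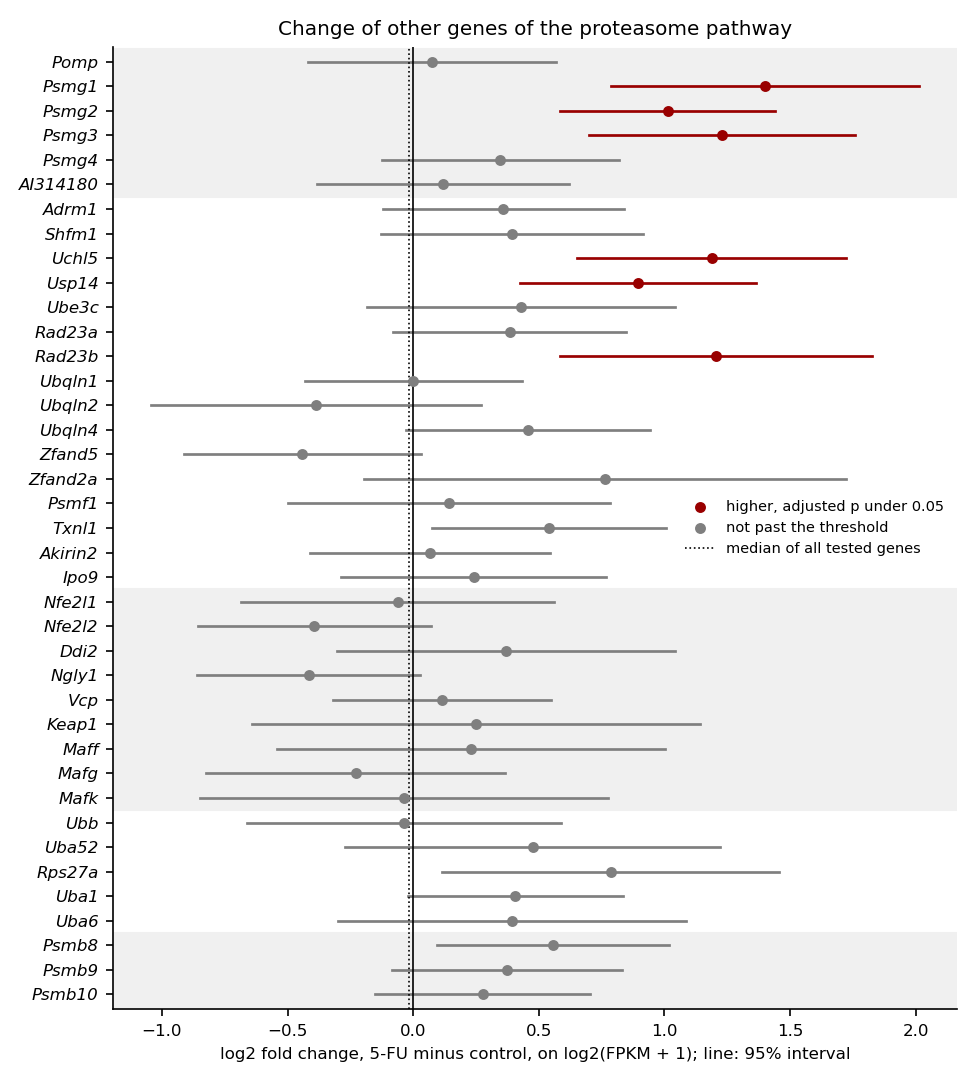
log2 fold change (x axis, 5-FU minus control on log2(FPKM + 1)) with 95% interval of 39 of the 40 other pathway genes (y), shaded by list from assembly chaperones at the top through associated proteins, transcriptional control and ubiquitin genes to the immunoproteasome. The 6 genes past the threshold are Psmg1, Psmg2, Psmg3, Uchl5, Usp14 and Rad23b.

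Some of these values are shared with other loci. In GENCODE M21 transcripts, 24 of the 41 genes had no stretch of the 75 bases of a read in common with a transcript of another gene, and 11 shared 10% or more of such stretches. The highest shares were 51.7% for Psme2, with the protein-coding copy Psme2b, 40.0% for Psmb5, mostly with the processed pseudogene Gm3375, 39.8% for Psma5 and 33.1% for Psmb3, both with pseudogene copies. Exons of 11 genes lie under exons of another gene. No source used here says how reads at such places were divided, so these values are uncertain to that degree. Psma1, Psmb6, Psmc4, Psmd12 and Psmd14, 5 of the 6 subunit genes that rose, shared none.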

How the data were processed

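RNA-seq was analysed from 4 libraries, 2 per group. Per the labels' protocols they were SMART-Seq Ultra Low Input cDNA libraries with single-end reads of 75 bp. The submitters' processing notes name the build mm10 and TopHat2 2.0.13, Bowtie2 2.2.3, SAMtools 0.1.19 and Cuffnorm 2.2.1. The deposited values are FPKM, which that last tool scales between libraries. No source used here gives its normalization setting, the annotation or the depth. Column headers of the 5-FU libraries name another day than the file names, and groups follow the labels.

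The deposited FPKM were analysed as log2(FPKM + 1). A gene was tested if 2 or more libraries had at least 1 FPKM, which left 11496. limma 3.58.1 (R 4.3.3) compared the groups by lmFit and eBayes with a trend of variance on mean (2 residual and 5.62 prior degrees of freedom), two-sided, with Benjamini-Hochberg adjustment over all tested genes and a threshold of 0.05. The fit was tried on simulated data with independent noise and changes planted in genes above a set level. That trial does not cover shifts that many genes of a library share, or genes of low level. With 2 libraries per group, p-values rest on the spread between libraries, which limma draws toward the trend over all tested genes. The labels do not say whether donor cells were pooled.

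The members and lists were chosen with earlier results of these data known. Values in all libraries are given for members that passed, catalytic subunits, the member of smallest p in each prefix, negative members, Psme genes, Psma8 and Psmb11, and for pathway genes that passed with Nfe2l1, Nfe2l2, Pomp and Psmb8 to Psmb10. Other genes with such values (Psma6, Psma7, Psmb1, Psmb2, Psmb3, Psmc2, Psmd1, Psmd3 to Psmd7, Psmd9, Psmd10, Psmd13 and Mlx) were chosen after they were seen. Some genes of the lists are counted in them and not reported singly here. Replicate numbers pair nothing the labels name, so the model has the group alone. Alternatives were pseudocounts, filters, scalings, eBayes forms, the replicate number as a block, each library left out and, added after seeing the data, Psmc3ip left out. Promoter windows came from RefSeq (GRCm38.p6), matched by symbol for 34 members.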

Additional observations from a re-analysis of the deposited data

How the results depend on the processing

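The median change of the tested genes was above 0 in each of the 14 alternative settings, but the counts moved. Against 7 higher and 1 lower, limma called 4 and 0 with a pseudocount of 0.1. With a filter of 5 FPKM, which drops Psma8, it called 11 and 0. Of all tested genes 7.39% and 11.9% were higher in these settings, beside 8.23% in the main fit. When low values were not filtered limma called 0 and 0, where 0.15% of all tested genes were higher. No share of all genes at an unadjusted p under 0.05 is given for this setting, here or for the other pathway genes below. At that threshold 20 members were higher and 2 lower. Without a trend 2 were higher, where 4.77% of all tested genes were. Quantile and TPM scaling left 0 lower, and the Psmd median was 0.47 under quantile normalization. With the replicate number as a block, 4 were higher and 0 lower, where 7.44% of all tested genes were higher. The labels name nothing that same-numbered libraries share, and the deviations of such libraries correlated at −0.16 across genes. Leaving out 1 library gave 1 to 31 higher and 0 to 1 lower, under the assumption that the single remaining library varies as the other group does, and medians of 0.50 to 0.77 over all members, 0.42 to 0.72 for Psma, 0.51 to 0.84 for Psmc and 0.50 to 0.71 for Psmd. Of the other pathway genes, 0 to 13 were higher and 0 to 1 lower without 1 library, against 6 and 0; 0 were higher with no filter (11 at an unadjusted p under 0.05), and 1 was lower under quantile normalization. The difference in library share was 0.438 percentage points without the 100 most abundant genes. Psmc3ip kept its call in 13 of 14 settings and Psma8 in 5 of 13; the cause was not tested. With 2 libraries per group the number of libraries limits the precision.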
